A study of Mus musculus with 4 samples.

Results

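The SOCS family are 8 intracellular proteins, SOCS1 to SOCS7 and CISH, that limit cytokine signalling. The genes were taken by symbol: a probe set counted when its single gene symbol was one of the 8, and where several did, the brightest on average represented the gene. All 8 had one, out of 19938 genes named on the array, and 12 probe sets in all carried a member's name. RNA came from mouse cells labelled as microglia, the macrophages that live in brain tissue, and was hybridised to 4 arrays of the Affymetrix type Mouse Gene 1.0 ST. The groups were wild type (WT, strain C57Bl) with no agent, WT with lipopolysaccharide (LPS, a bacterial cell wall component) for 3 h, cells of genotype Bid-/- with no agent, and Bid-/- cells with LPS for 3 h. Bid encodes a BH3-only protein that links death receptors to the mitochondrial route of apoptosis. Each group had 1 array, so a difference between a pair of arrays has no replicate check. The sources used here do not state the LPS dose, how the cells were prepared, the strain behind the Bid-/- cells or how many animals or cultures were used.

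Each SOCS protein has a central SH2 domain, which binds phosphorylated tyrosines, and a SOCS box at its end. The SOCS box recruits elongins B and C and a cullin to form a ubiquitin ligase that marks bound receptors and kinases for destruction. SOCS1 and SOCS3 also carry a short region that blocks JAK kinases directly. The genes of CISH, SOCS1, SOCS2 and SOCS3 are classical targets of STAT factors, which JAK kinases activate, so the family closes a feedback loop. In macrophages SOCS3 is the restraint on signals through the gp130 receptor chain, as from interleukin-6, while SOCS1 restrains interferon receptors.

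Promoters of 4 of the 8 genes were in the RefSeq table of build GRCm38.p6: those of Socs1, Socs3, Socs4 and Cish. The 250 bases before the annotated start are printed for Socs3, the member that changed most with LPS, and for Socs1, the other direct JAK inhibitor. Sequences run 5′ to 3′ on the gene's strand. Capitals in the first mark the STAT-type palindrome TTCNNNGAA, and in the second the interferon response element core, GAAA, any 2 bases and GAAA again. Both motifs were searched on both strands.
Socs3 promoter, chr11:117969367-117969616, minus strand: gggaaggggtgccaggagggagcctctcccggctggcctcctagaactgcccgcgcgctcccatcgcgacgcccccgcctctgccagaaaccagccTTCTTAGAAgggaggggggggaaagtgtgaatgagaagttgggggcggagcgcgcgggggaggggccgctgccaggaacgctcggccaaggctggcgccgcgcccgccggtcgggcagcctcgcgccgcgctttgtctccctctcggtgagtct
Socs1 promoter, chr16:10785537-10785786, minus strand: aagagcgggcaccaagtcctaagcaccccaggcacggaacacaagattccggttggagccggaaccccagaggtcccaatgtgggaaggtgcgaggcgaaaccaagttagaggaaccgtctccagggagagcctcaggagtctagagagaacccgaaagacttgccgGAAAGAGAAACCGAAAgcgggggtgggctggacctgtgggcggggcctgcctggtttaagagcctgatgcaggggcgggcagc

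The Socs3 window held 1 STAT-type match, 154 to 146 bases before the start. The Socs1 window held none (0) of these and 2 overlapping interferon response element matches, which together ran from 83 to 68 bases before the start. Over the same 250 bases, 7.02% of 32851 promoters in the table held the STAT-type letters and 2.98% the interferon response element core. The Socs4 window held neither motif. The Cish window held neither before the start, but at or just after it lay 2 STAT-type matches, TTCCTGGAA and TTCTTGGAA. A GC box, GGGCGG on either strand, was found in all 4 windows and in 32.7% of all promoters. These matches describe the letters and do not show that a factor was bound.

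The labels and the cell type could be checked only in part. Bid read 5.69 on the WT control array, 5.02 on the WT LPS array, 5.53 on the control array labelled Bid-/- and 5.97 on the LPS array so labelled. It was therefore not lower on both arrays labelled Bid-/-. The position of its probes against the deleted part is not stated, so Bid does not check the labels, and genotypes below are as labelled. Of 11 microglial markers 10 were measured. All 10 reached the floor of 4.26, the median log2 level of the array's probe sets, on at least 1 array, and 9 did on all 4. P2ry12 read 4.33 and 3.91 in WT without and with LPS, and 4.38 and 3.90 under the Bid-/- label. All 5 neuron and 5 neutrophil markers stayed under that floor on all 4 arrays. Of measured astrocyte markers 3 of 5 reached it on at least 1 array, and of oligodendrocyte lineage markers 4 of 5. So did 3 of 5 endothelium and 1 of 4 lymphocyte markers. The highest level among these lists was 5.97, for Mbp of the oligodendrocyte lineage. Of 10 fibroblast and mural cell markers 8 reached the floor, among them Dcn, the matrix proteoglycan decorin. Dcn read 5.94, 7.31, 8.09 and 7.44 in the order above. Over all probe sets, pairs of arrays correlated at Pearson's r of 0.984 to 0.996, across probe sets that are not independent replicates.

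Socs3 was the member that responded to LPS. In WT its log2 expression was 7.57 without and 9.67 with LPS, and under the Bid-/- label it was 8.18 without and 9.84 with LPS. Both LPS arrays were higher than both control arrays. The LPS difference was 2.10 on the log2 scale in WT, or 4.29-fold, and 1.66 under the Bid-/- label, or 3.16-fold. It ranked 57 of 11129 genes from the top in WT and 94 of 10995 under the Bid-/- label. As background, a 2-fold or greater rise in level was read for 2.39% of genes in WT and 2.7% under the Bid-/- label; of the 8 members, Socs3 alone was among them in both.

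A second probe set named Socs3 also read higher with LPS under both labels. It read 4.94 and 7.05 in WT without and with LPS, and 5.32 and 6.76 under the Bid-/- label. Its LPS differences were 2.11 and 1.44. Between the labels it differed from the probe set used: with LPS it was at -0.29 under the Bid-/- label against WT, where the one used was at 0.17. By its number on the platform it lies among probe sets of chromosome 11, with 14 of its 20 named neighbours on the plus strand and 0 on the minus strand, while the Socs3 gene is on the minus strand. The probe set used for Socs3 has 14 neighbours on the minus strand and 0 on the plus strand. No source used here states which strand each probe set reads.

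An additive model of genotype and LPS was fitted to all 11326 genes that reached the floor on any array. Because each group is 1 array, the model asks whether the LPS change was seen under both genotype labels, and its error comes from how far they differed, with 1 residual degree of freedom. For Socs3 the mean LPS change was 1.88 on the log2 scale (SE 0.18, limma adjusted p = 0.0327), higher under 2 of 2 labels. The fit called 1.68% of genes higher and 1.56% lower with LPS. Of the 7 members that reached the floor, 1 was called higher and 0 lower. Without the filter on low values the limma adjusted p of Socs3 was 0.104. Across the other alternatives it ran from 8.16e-05 to 0.0384. These calls rest on 1 residual degree of freedom and on how the spread over genes is modelled, since in simulated data the fit made many calls or 0 depending on the spread assumed.

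**Figure D1:**
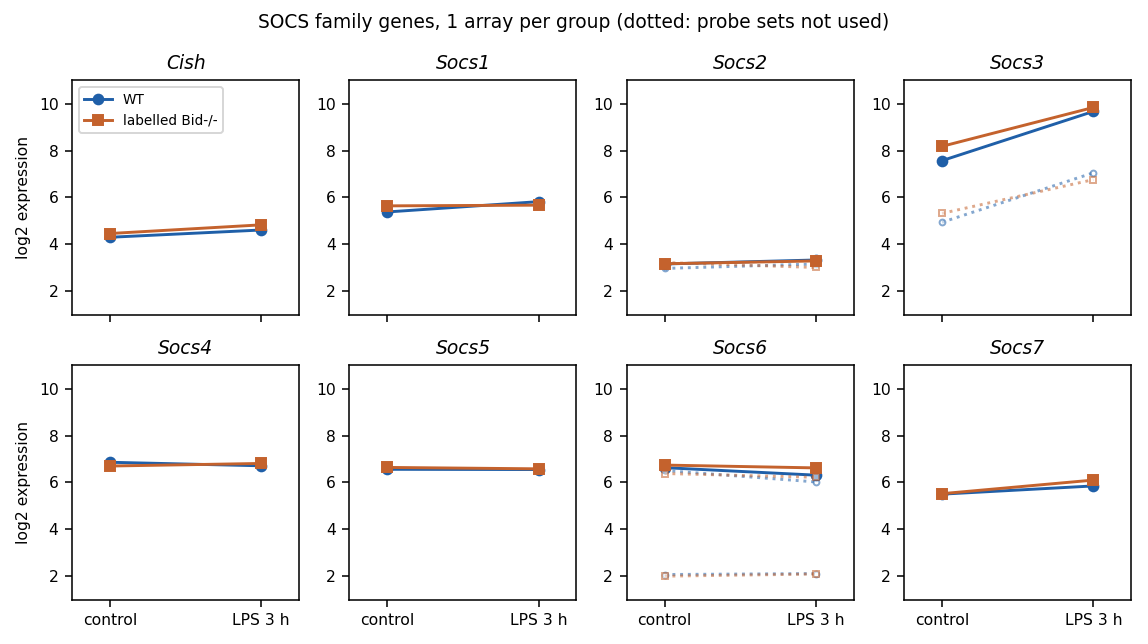
Log2 expression of each SOCS family gene (vertical axis, log2 units) on the control and LPS 3 h arrays; circles are WT and squares the arrays labelled Bid-/-, 1 array per point, and dotted lines are probe sets not used. Socs3 goes from 7.57 to 9.67 in WT and from 8.18 to 9.84 under the Bid-/- label, while the other used probe sets move by at most 0.58; levels are not to be compared between panels.

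Socs1, the other direct JAK inhibitor, read 5.38 and 5.82 in WT without and with LPS, and 5.64 and 5.67 under the Bid-/- label. The LPS array was higher in WT, whereas the pair labelled Bid-/- was nearly level. The differences were 0.44 and 0.03, and the mean change of 0.24 did not pass (SE 0.15, limma adjusted p = 0.377). After quantile normalization the difference under the Bid-/- label was 0.19, and after removal of an intensity trend 0.23, so the near absence of a difference there depends on the scaling.

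Cish, the founding member, acts at receptors that signal through STAT5. It read 4.30 and 4.61 in WT and 4.46 and 4.83 under the Bid-/- label, so that each LPS array was above its own control. Its level lay close to the floor of 4.26. The differences of 0.31 and 0.37 lay 0.06 apart, and the mean change of 0.34 did not pass (SE 0.10, limma adjusted p = 0.124). A change at least this high under both labels was read for 7.38% of genes tested. Socs2, which restrains growth hormone signalling, read 3.16 and 3.33 in WT and 3.17 and 3.29 under the Bid-/- label. These lie below the floor on all 4 arrays, and Socs2 did not enter the fit. It is also named by a second probe set, at 2.97, 3.16, 3.22 and 3.01, which is numbered among probe sets of chromosome 12 although the gene is on chromosome 10.

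Socs7, which binds adaptor and cytoskeletal proteins, had the highest LPS difference after Socs3 in the additive fit. It read 5.50 and 5.85 in WT and 5.52 and 6.10 under the Bid-/- label. Both LPS arrays were above both controls, with LPS differences of 0.35 and 0.58. Its mean change was 0.47 (SE 0.12, limma adjusted p = 0.108) and did not pass. After quantile normalization it was 0.61 and passed (limma adjusted p = 0.0187), in a setting where 1870 genes passed against 367 here. A change at least as high under both labels was read for 5.23% of genes tested.

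Socs4 and Socs5, which have long amino-terminal regions and act on the epidermal growth factor receptor, did not pass for LPS. Socs4 read 6.86 and 6.71 in WT and 6.70 and 6.81 under the Bid-/- label. The LPS difference was thus -0.15 under one label and 0.11 under the other, and its mean of -0.02 had a limma adjusted p of 0.944 (SE 0.14). Under the Bid-/- label the Socs4 difference was 0.22 after quantile normalization and 0.27 after removal of an intensity trend, and in WT it was -0.06 and -0.02. Socs5 read 6.56 and 6.55 in WT and 6.64 and 6.58 under the Bid-/- label, a spread over all 4 arrays of less than the SE of 0.13 of its mean change. Its differences of -0.01 and -0.06 became 0.14 and 0.12 after removal of an intensity trend, so Socs5 has no settled direction.

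Socs6, which binds receptor tyrosine kinases, was the member with the lowest WT difference. It read 6.63 and 6.31 in WT and 6.74 and 6.62 under the Bid-/- label, differences of -0.32 and -0.12. The mean of -0.22 did not pass (SE 0.14, limma adjusted p = 0.367), and the difference under the Bid-/- label was 0.00 after quantile normalization and 0.05 after removal of an intensity trend. The probe set that the rule selects is numbered among probe sets of chromosome 7, with 0 of 20 named neighbours on the gene's own chromosome, 18. It carries the same gene identifier as another Socs6 probe set, which is numbered on chromosome 18 (10 of 20 neighbours). That other probe set read 6.51, 6.02, 6.38 and 6.22 in the order WT control, WT LPS, and control and LPS labelled Bid-/-. The LPS differences of that probe set were -0.49 and -0.16. The level of Socs6 is therefore uncertain between these probe sets, with a negative LPS difference in both as deposited. A remaining Socs6 probe set stayed between 2.00 and 2.11.

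The median LPS difference of the 7 members tested was 0.31 in WT and 0.11 under the Bid-/- label, against -0.05 and -0.09 over the genes tested. With Socs2, which was under the floor, the medians of the 8 were 0.24 and 0.12. Of the 7 members tested, 4 were above 0 in WT and 5 under the Bid-/- label, where 44.2% and 39.0% of genes tested lay above 0. After removal of an intensity trend 5 and 7 of the 7 were above 0, beside 52.5% and 51.4% of genes tested. Within 0.5 of 0 lay 7 of 8 in WT and 6 of 8 under the Bid-/- label, against 77.1% and 77.0% of genes tested. These counts of 8 include Socs2, which was not tested. No member (0) was at least 2-fold lower with LPS, where 2.08% of genes in WT and 1.65% under the Bid-/- label were. The median of the 7 members tested was 0.31 in WT under quantile normalization too, and 0.22 under the Bid-/- label against 0.11 as deposited.

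**Figure D2:**
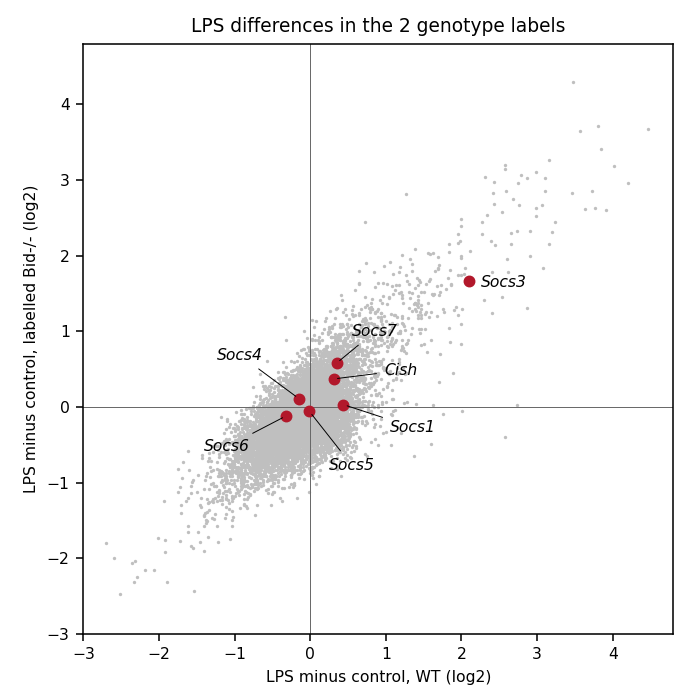
LPS minus control in WT (horizontal axis, log2) against the same difference under the Bid-/- label (vertical axis, log2) for 11326 genes in grey, with the 7 SOCS family genes that reached the floor in red. Socs3 lies at 2.10 and 1.66, and the other 6 lie inside the cloud between -0.32 and 0.58.

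Between the genotype labels no SOCS gene differed 2-fold. Without LPS the array labelled Bid-/- read Socs3 0.61 higher, Socs1 0.26 higher and Cish 0.16 higher than the WT array, and Socs4 0.16 lower, at -0.16. Socs2, Socs5, Socs6 and Socs7 differed by 0.01, 0.08, 0.11 and 0.02. A difference from 0 as large as that of Socs3 was read for 1.71% of genes tested, and one as large as that of Socs1 for 15.1%. With LPS, Socs3 was 0.17 higher, Socs6 0.31, Socs7 0.25 and Cish 0.22, and Socs1 was at -0.15. As large a difference as that of Socs3 was then read for 60.9% of genes. At least 2-fold differences in either direction were read for 0.431% of genes without and 0.815% with LPS, and for 0 of the 8 members in both.

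The additive fit called 0% of 11326 genes for genotype (0 genes, limma), with 709 at an unadjusted p under 0.05 and 16 called after quantile normalization. For Socs3 the mean genotype difference was 0.39 (SE 0.18, limma adjusted p = 0.623), higher in 2 of 2 conditions. The other Socs3 probe set was 0.38 higher without LPS and at -0.29 with it, so the direction with LPS depends on the probe set. Of the 7 members tested 0 had an unadjusted p under 0.05. These values do not show that the labels are alike, since 1 array stands for each group.

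Fibroblast and mural cell markers differed in the same direction as Socs3 between the control arrays. All 8 that reached the floor were higher on the control array labelled Bid-/- than on the WT control array, where 51.4% of genes tested were. Their median difference was 0.77, and Dcn was 2.15 higher. Summed over the 10 markers the log2 level was 48.2 in WT without LPS and 55.5 with it, and 55.5 and 54.6 under the Bid-/- label. With LPS, the direction of the list's median differed as deposited, at 0.76 in WT and -0.09 under the Bid-/- label, the second turning above 0 under both other scalings. Of the 11326 genes tested, 6173 read below 0 with LPS in WT and 6759 under the Bid-/- label as deposited. After removal of an intensity trend 5506 did under the Bid-/- label. Microglial markers also read lower with LPS. Their median was -0.28 in WT, with 8 of 10 below 0, and -0.41 under the Bid-/- label. Under that label 10 of 10 were below 0 as deposited and 9 of 10 after removal of an intensity trend. Of them Cx3cr1, the fractalkine receptor gene, was called lower, at -1.12 and -1.41 (limma adjusted p = 0.045). For the Bid-/- label against WT, the microglial median was -0.015 without LPS, with 5 of 10 above and 5 below 0. With LPS it was -0.33, with 2 above and 8 below 0, where 51.0% of genes tested lay above 0. Fcrls, at -0.94 without and -1.06 with LPS, was the lowest of the 10 in both. Cx3cr1 and Fcrls were named after their values were seen. Rgs5 and Lum, a mural cell and a fibroblast marker, stayed under the floor on all 4. The part of these cells in the SOCS values was not tested, and in cultures a change in cell composition and a change of RNA per cell cannot be told apart. Strain, sex and culture also cannot be told apart from Bid in any difference between the labels.

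The series compares inflammatory expression profiles of the genotypes, which for each gene is the LPS difference labelled Bid-/- minus that in WT, from the same 4 arrays as above. This difference of response was -0.44 for Socs3, -0.41 for Socs1, -0.05 for Socs2 and Socs5, 0.06 for Cish, 0.20 for Socs6, 0.23 for Socs7 and 0.26 for Socs4. Of the members 4 were above 0 and 4 below, and 0 of the 8 reached a 2-fold difference, which 0.786% of genes tested did. A value at least as far from 0 as that of Socs3 was read for 19.7% of genes tested, and as that of Socs1 for 22.8%. For Socs3 the control arrays lay 0.61 apart and the LPS arrays 0.17. The other Socs3 probe set had a difference of response of -0.67. With 4 arrays this difference is the residual of the fit and was not tested.

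Most cytokines upstream of the family that reached the floor rose. Of 22 ligands that signal through JAK and STAT, 12 reached the floor on at least 1 array. The fit called 10 of these higher and 0 lower, where it called 1.68% of all genes higher. Only 7 of the 12 were at the floor on all 4 arrays. Csf2, Csf3 and Il23a were under it on both control arrays, and Lif and Il12b on the WT control array. Csf2, Csf3 and Il23a thus entered the fit only through the arrays where they were high, so the count is partly fixed by the filter. Without the filter on low values 0 of the ligands passed, as 0 of 19938 genes did, so every LPS call of the fit named here is lost in that setting. Il6, which signals through gp130 and induces Socs3, went from 7.01 to 11.48 in WT and from 7.70 to 11.38 under the Bid-/- label (limma adjusted p = 0.0225). Lif, another gp130 ligand, rose by 3.85 and 3.41 and the anti-inflammatory Il10 by 2.53 and 2.58 (limma adjusted p = 0.0209 for both). Csf2 (4.01 and 3.18), Csf3 (3.63 and 2.62) and Il12b (3.72 and 2.86), a shared subunit of interleukins 12 and 23, also rose. The smaller Csf3 response under the Bid-/- label, by -1.01, was the largest difference of response in the list. Ifnb1, the interferon of macrophages, read 3.09 and 4.24 in WT and 3.12 and 3.83 under the Bid-/- label. It stayed under the floor and was not tested.

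Of 26 measured receptors 20 reached the floor. The fit called 0 of these higher and 2 lower, where it called 1.68% of all genes tested higher and 1.56% lower. Il21r, the interleukin-21 receptor, fell from 8.54 to 6.82 in WT and from 8.59 to 6.82 under the Bid-/- label (limma adjusted p = 0.0296). Il6ra, the binding chain for interleukin-6, fell from 7.08 to 5.89 and from 7.13 to 5.90 (limma adjusted p = 0.0367). Its signalling partner Il6st, which encodes the gp130 chain that SOCS3 binds, read -0.30 and -0.48 and did not pass (limma adjusted p = 0.161). Il6st was named after its values were seen, as was Jak2 below. The largest difference of response among the receptors was that of Osmr, the oncostatin M receptor, at 0.51 in WT and 0.00 under the Bid-/- label.

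Over all genes tested 1.68% were called higher and 1.56% lower with LPS. Of the JAK kinases and STAT factors, 9 were measured and reached the floor, and 0 passed for LPS in either direction, which is near those shares. Jak2, a target of SOCS1 and SOCS3, was nearest, at 0.92 and 0.99 (limma adjusted p = 0.0501). Stat2, which carries type I interferon signals, read 9.74 and 8.64 in WT and 10.05 and 9.60 under the Bid-/- label, so that a difference of -1.10 in WT stood beside -0.45. All 9 had a higher LPS difference under the Bid-/- label, where 49.4% of genes tested did, and the median was 0.17. The 9 of 9 held after quantile normalization, beside 52.6% of genes tested, and after removal of an intensity trend, beside 55.1%. Among 13 inhibitors outside the family, which include PIAS proteins and tyrosine phosphatases, 0 passed, again near the share called over all genes. Of these inhibitors, 11 had a higher LPS difference under the Bid-/- label, as deposited and under both other scalings, with a deposited median of 0.28. The pattern was thus not particular to the JAK and STAT genes, and other lists did not share it as deposited. Of the receptors 9 had a higher and 10 a lower LPS difference under the Bid-/- label, and of the ligands 3 and 9. For the ubiquitin ligase partners it was 5 and 5, and for the other SOCS box genes 6 and 8. For the genes whose proteins SOCS1 or SOCS3 bind it was 5 and 2, and for the SOCS members tested 4 and 3. The largest difference of response among the inhibitors was 0.42, for the ubiquitin ligase gene Cbl (0.01 and 0.43).

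Of 10 measured partners that turn SOCS proteins into ubiquitin ligases, 0 were called. Their median LPS difference was 0.14 in WT and -0.13 under the Bid-/- label, and the second became 0.02 after removal of an intensity trend. Elob, which encodes elongin B, read 0.19 in WT and -0.53 under the Bid-/- label. Of 16 other SOCS box genes at the floor, 0 were called; Wsb1, a ligase substrate receptor, read 0.25 and 1.05. Of 7 genes whose proteins SOCS1 or SOCS3 bind outside the JAK and STAT pathway, 0 were called, with Map3k5, a stress kinase gene, at 0.57 and 1.20. In lists this short 0 calls lie near the share over all genes tested, of which 1.68% were called higher and 1.56% lower.

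**Figure D3:**
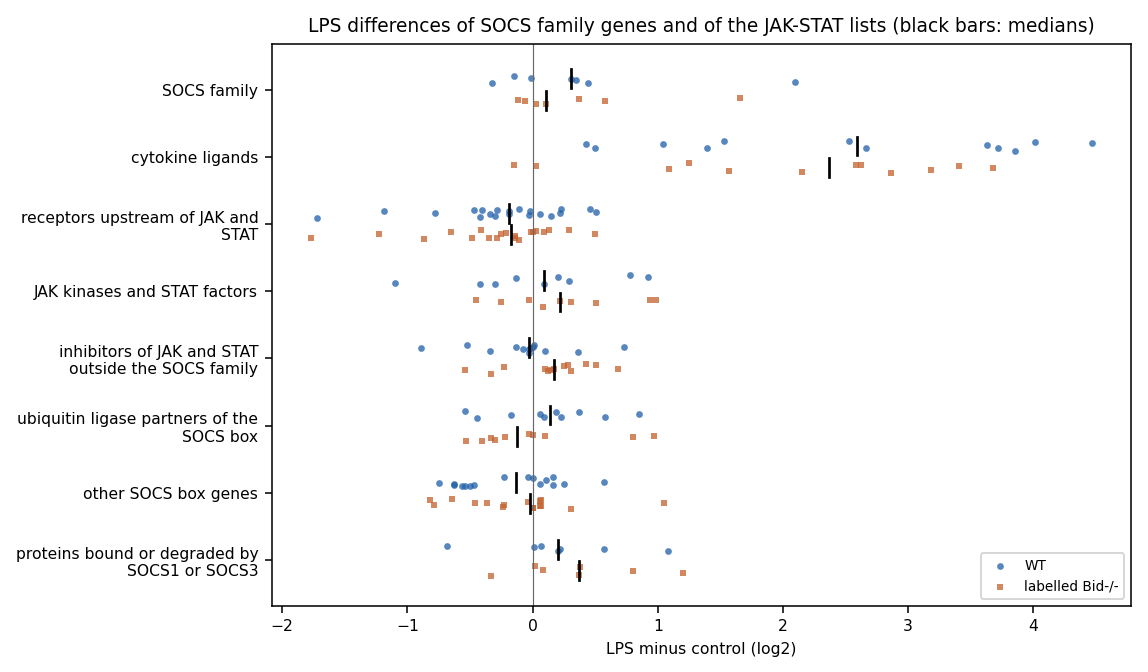
LPS minus control (horizontal axis, log2) for each gene at the floor, by list (vertical axis), with circles for WT and squares for the arrays labelled Bid-/-; black bars are list medians and the vertical scatter within a row carries no value. The cytokine ligands have medians of 2.60 and 2.37, the 7 SOCS genes 0.31 and 0.11, and the receptors -0.19 and -0.18. Some ligands reached the floor only with LPS, which raises the ligand medians.

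The 3 genes nearest to Socs3 in pattern were taken by Euclidean distance over the 4 centred log2 values among the 11326 genes at the floor. Slc7a11, which encodes the cystine and glutamate exchanger, was nearest, at 0.149; it read 9.02 and 11.01 in WT and 9.64 and 11.39 under the Bid-/- label. Il17ra, an interleukin-17 receptor gene, lay at 0.257, with LPS differences of 1.79 and 1.56, and Cxcl10, a chemokine gene, at 0.266. Since the distance used all 4 arrays, their likeness to Socs3 on any of them is fixed by the choice.

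The genes beside Socs3 read near 0 with LPS, Tha1 at 0.07 and -0.22 and Pgs1 at -0.01 and 0.18. Beside Cish, Mapkapk3, a kinase gene of the p38 pathway, rose by 1.16 and 0.98 (limma adjusted p = 0.047), while Hemk1 on its other side read -0.05 and -0.35. Clec16a and Tnp2, which flank Socs1, read -0.22 and 0.17 in WT and -0.31 and 0.07 under the Bid-/- label. Tnp2 was under the floor on all 4 arrays and was not tested.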

How the data were processed

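The authors deposited 1 table of values for 28944 probe sets on 4 arrays. The submitters' processing notes name 3 tools without saying what each did: RMA, Affymetrix Expression Console and Partek 6.2. The deposited values were read as log2 expression, since they have 2 decimals and run from 1.4 to 13.5; no log base is stated, so folds rest on that reading. RMA as usually run equalises the arrays' distributions, which would hide a shift of all genes. The number of arrays limits the precision, and levels of different probe sets were not compared.

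In the platform annotation 21789 probe sets had a single symbol, 1621 had several and 5534 had none. Only those with a single symbol were named, and 21698 of them matched RefSeq (GRCm38.p6) by Entrez identifier, which changed 0 symbols. The probe set with the highest mean stood for each of 19938 genes. A gene entered a comparison when its highest array reached 4.26. The additive model was fitted with lmFit and eBayes of limma 3.58.1 (R 4.3.3), letting the prior spread follow intensity, with Benjamini-Hochberg adjustment and a threshold of 0.05. Rounding left 169 genes with a residual of 0, and the prior degrees of freedom were 3.07. Whether the arrays came from separate cultures is not stated, so the spread behind p-values may be technical.

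The fit was tested on simulated data with known changes. The first simulation resampled the real genes' residual SDs and rounded the values as deposited; the fit estimated the changes but called 0 of them. Simulations with less widely spread SDs, which were also lowered by a factor set by hand, were added after that was seen. In these most of the larger changes were called, fewer of the smallest ones when the values were rounded than when they were not. Removing the rounding alone did not restore calls with the resampled SDs. The simulations therefore do not settle how often a true change is missed here.

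Alternatives were no filter, a stricter floor of 4.92, quantile normalization, uniform noise of 0.005 inside the rounding, no intensity trend in eBayes, the mean of a gene's probe sets and, for differences of 2 arrays, removal of a lowess trend (statsmodels 0.14.6). The members and gene lists were chosen with earlier results of these data known. Named genes were all members, up to 6 genes per list that were called or 2-fold changed under both labels, each list's largest difference of response, the 3 genes nearest in pattern to a member changed 2-fold, and chromosomal neighbours. One of the gene lists is not reported here.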

Additional observations from a re-analysis of the deposited data

Results flagged for a closer look

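Several LPS differences had opposite signs under the genotype labels. The difference between the labels was not tested, and with 1 array per group many genes can do so. The share of all genes tested that did so was not counted. In the family, Socs4 read -0.15 in WT and 0.11 under the Bid-/- label, and the Socs2 probe set that was not used read 0.19 and -0.21, at levels under the floor. Bid itself read -0.67 and 0.44. Elob, which encodes elongin B, read 0.19 and -0.53, and the fibroblast marker Dcn 1.37 and -0.65. Of the members' neighbours, Tha1 read 0.07 and -0.22, Pgs1 -0.01 and 0.18, and Cript, beside Socs5, 0.06 and -0.18. List medians of opposite sign as deposited were -0.03 and 0.17 for the inhibitors outside the family and 0.14 and -0.13 for the ubiquitin ligase partners. For the fibroblast and mural cell markers they were 0.76 and -0.085. After removal of an intensity trend these medians were all above 0, at 0.04 and 0.273, 0.165 and 0.02, and 0.846 and 0.084. After quantile normalization only the partners kept opposite signs, at 0.101 and -0.047.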

How the results depend on the processing

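The number of genes called for LPS in the additive fit was 367 and depended on the setting: 0 without the filter on low values, 933 with the stricter floor, 1870 after quantile normalization and 1905 with noise inside the rounding. The share called higher was 51.8% as deposited, 39.7% with the stricter floor, 34.3% with the noise and 62.4% without an intensity trend in eBayes. For genotype the count of 0 became 16 after quantile normalization and 3 with the noise. Socs3 lost its call without the filter (limma adjusted p = 0.104), where no gene (0) passed, and Socs7 gained one after quantile normalization. The counts of 2-fold genes in the 4 differences between arrays and in the difference of response stayed within 1.5 times. The share of them that was higher moved, however: with LPS in WT from 53.5% to 66.5% and under the Bid-/- label from 62.1% to 79.1% once an intensity trend was removed (74.4% after quantile normalization), for genotype with LPS from 40.0% to 29.8%, and for the difference of response from 20.2% to 31.3%. Of 111 values of single members under an alternative, 98 kept their side of the threshold or moved by less than the SE, 11 moved by more and 0 reversed a 2-fold difference. Only Socs3 could count as reversed, since no other member was called or 2-fold changed as deposited. Smaller differences did change sign, as those of Socs5 did after removal of an intensity trend. The cause of these changes was not tested. No paired analysis was possible because the labels give no replicate numbers that pair arrays across groups; the additive fit itself takes LPS against control within each genotype label.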
